A study of Mus musculus with 18 samples.

Results

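The genes described here are 10 members of the cytosolic NOD-like receptor and inflammasome system, chosen by symbol from the 54232 genes of the read count table: Nlrp3, Nlrc4, Naip5, Aim2, Pycard, Casp1, Casp4, Gsdmd, Nod1 and Nod2. Their levels were followed across dendritic cells (DCs) of mouse small intestinal lamina propria (LP) and of the intestinal lymph node (LN). In each tissue the labels give CD11b+ DCs, CD103+ DCs and DCs positive for both (double-positive, DP), so that the 18 RNA-seq libraries form 6 groups of 3. Every library came from C57BL/6J mice of genotype CD11a KO, which lack the integrin alpha chain that Itgal encodes and that pairs with CD18 to form LFA-1. No wild-type library was analysed here, so no comparison bears on the knockout itself. No treatment, age, animal of origin or pooling is given per library, and p-values therefore measure the spread between libraries, which may be technical.

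Inflammasomes are cytosolic complexes that switch on caspase-1. A sensor such as NLRP3, the NAIP and NLRC4 pair or AIM2 assembles with the adapter ASC, the product of Pycard, or recruits caspase-1 directly. Caspase-1 then matures IL-1β and IL-18 and cleaves gasdermin D, whose fragments form pores in the plasma membrane. Casp4 encodes mouse caspase-11, which binds bacterial lipopolysaccharide in the cytosol and cleaves gasdermin D without caspase-1. NOD1 and NOD2 are related receptors that recognise peptidoglycan fragments and signal through RIPK2 to NF-κB rather than through an inflammasome, and in the intestine these receptors meet products of the resident bacteria.

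Libraries held 23574300 to 46902000 counted reads, to 6 significant digits. DC genes (Itgax, Flt3, Zbtb46 and H2-Ab1) were read in every library, and the summed level of 5 cDC1 genes was 6759 to 7261 CPM (counts per 1000000 reads of a TMM-normalized library) in LP CD103+ DCs against 231 to 300 in the other LP libraries. In the node that sum was 1982 to 2047 CPM in CD103+, 921 to 1102 in DP and 558 to 618 in CD11b+ DCs. The sum of 4 cDC2 genes there was 42.6 to 50.8 CPM in CD103+, 191 to 234 in DP and 732 to 1148 in CD11b+ DCs. The sort marker transcripts were weak in the node, where Itgae, which encodes CD103, reached 27.0 to 40.0 CPM in CD103+ DCs and 41.1 to 49.1 CPM in DP DCs, against 1238 to 1440 CPM in LP CD103+ DCs. Itgam, which encodes CD11b, had means of 20.8 CPM in LN CD11b+, 5.16 in LN DP and 0.438 in LN CD103+ DCs. In LP its means were 61.3 CPM in CD11b+ and 68.5 in DP DCs. Itgal, whose product these mice lack by genotype, was still read, at group means of 8.66 to 24.3 CPM. The sum of 8 macrophage genes (Fcgr1, Mertk, Cx3cr1, Cd163, Mrc1, Adgre1, C1qa and Lyz1) was 999 to 2199 CPM in LP CD11b+ DCs, 280 to 320 in LP DP, 57.2 to 72.3 in LP CD103+, 412 to 642 in LN CD11b+, 191 to 214 in LN DP and 18.6 to 22.3 in LN CD103+ DCs. Fcgr1 encodes CD64, which the study's gate for its own DC libraries excludes. It was at 7.90 to 11.1 CPM in LP CD11b+ and 4.09 to 6.00 in LN CD11b+ DCs. In LP CD103+ and both DP groups it was at 1.53 CPM at most, and in LN CD103+ DCs at 0. The sum of 6 DC maturation genes (Ccr7 and others) was 714 to 2339 CPM over all LP libraries, 3121 to 5217 in LN CD11b+, 19285 to 21549 in LN DP and 24332 to 25462 in LN CD103+ DCs. Xist, expressed from the inactive X of females, was read at 15.4 to 89.1 CPM in the LN libraries and at 0.286 CPM at most in LP, where the Y-linked Ddx3y was at 50.0 to 74.4 CPM. Sex-linked transcripts therefore moved with tissue and sex and tissue cannot be told apart, although 2 LN libraries (CD11b+ replicate 3 and DP replicate 3) carried both genes. In these sorted populations, a change in the share of cells that express a gene cannot be told apart from a change in RNA per cell.

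All 10 genes passed the filter on low counts and were tested among 17074 genes. Compared per kilobase of exon, with all annotated exons of a gene merged, Casp1 and Gsdmd were the highest of the 10 genes in all 6 groups. The order of genes depends on this length, which can exceed that of the transcript in use and so lower the value. For Pycard it was 3800 bases, most of the span of the gene. In LP CD11b+ DCs the level of Casp1 was 83.3 ± 2.38 CPM per kb (SD, n = 3) and that of Gsdmd 59.7 ± 6.94. In LN DP DCs the order of these genes was turned, with Gsdmd at 154 ± 6.86 and Casp1 at 77.9 ± 4.87 CPM per kb. At the low end stood Nod2 in both CD11b+ groups, Nlrc4 in both CD103+ groups and in LP DP DCs, and Nlrp3 in LN DP DCs. The lowest of these levels was that of Nlrc4 in LN CD103+ DCs, at 0.0676 ± 0.0475 CPM per kb.

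**Figure D1:**
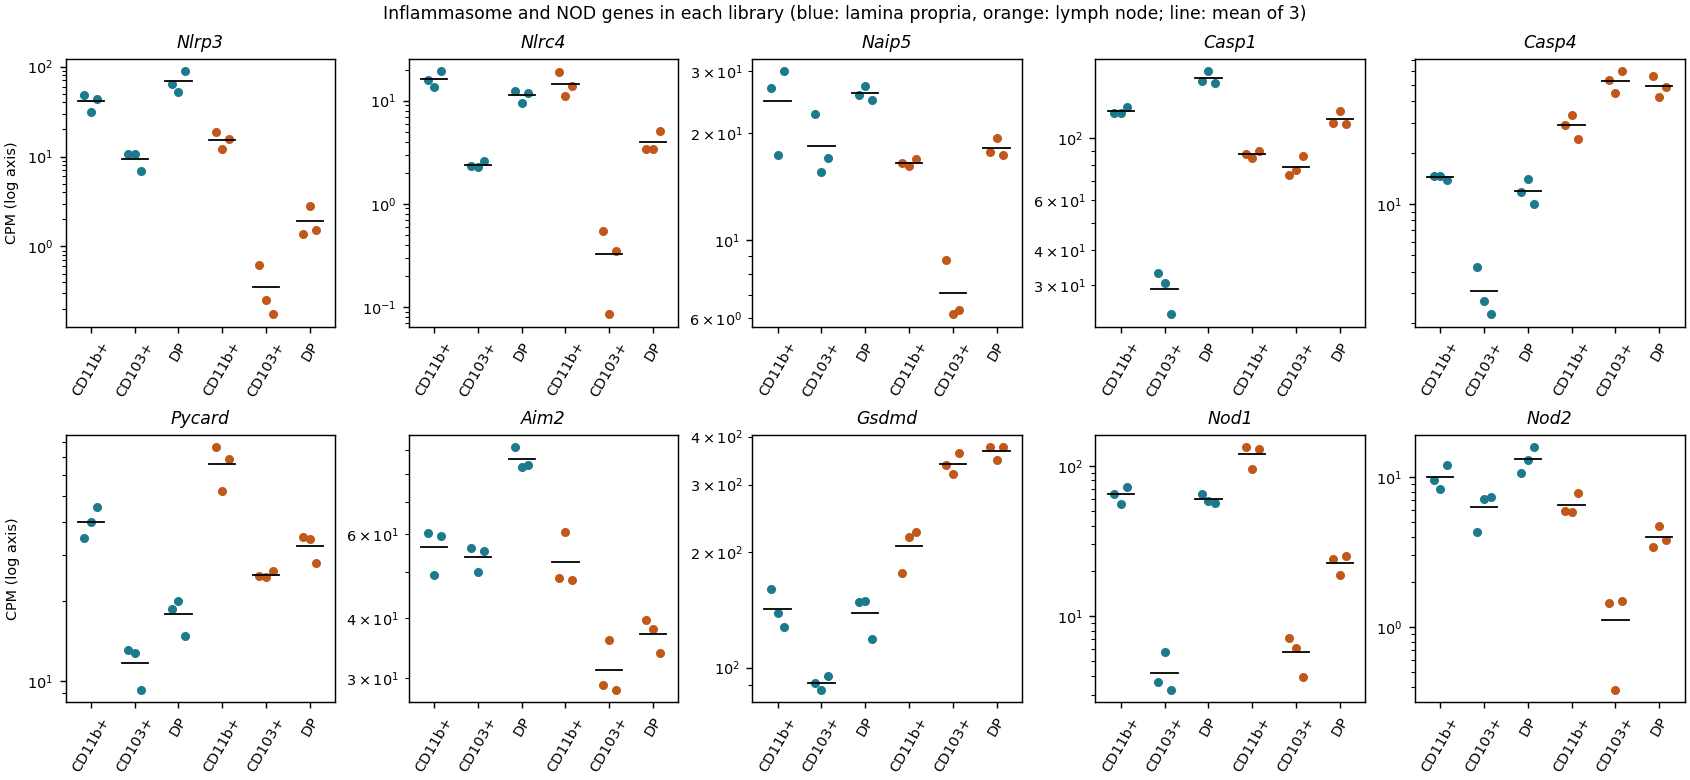
Level of each gene in CPM (log axis) in the 18 libraries, with LP groups in blue, LN groups in orange and the mean of 3 libraries as a line. Nlrp3, Nlrc4, Naip5, Aim2 and Nod2 had their lowest mean in LN CD103+ DCs, Casp1, Casp4, Pycard, Gsdmd and Nod1 in LP CD103+ DCs.

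Nlrp3 (chromosome 11, 59541568 to 59566956, plus strand, GRCm38) encodes the sensor of ion flux and membrane damage. In LP, Nlrp3 was read at 48.4, 31.3 and 43.7 CPM in CD11b+ DCs, at 10.6, 10.8 and 6.81 CPM in CD103+ DCs and at 64.2, 52.2 and 88.7 CPM in DP DCs. In the node it was at 18.5, 12.3 and 15.5 CPM in CD11b+ DCs, at 0.622, 0.253 and 0.175 CPM in CD103+ DCs (15, 6 and 4 reads) and at 1.37, 2.83 and 1.52 CPM in DP DCs. Each LN group lay wholly below its LP counterpart, and the LP DP libraries, the highest of all, stood against node libraries of the same label that were all under 3 CPM. Nlrp3 fell in LN against LP in CD11b+ DCs (log2 fold change -1.41 ± 0.29 SE, edgeR adjusted p = 0.00101), in CD103+ DCs (-4.72 ± 0.41, 3.4e-08) and in DP DCs (-5.15 ± 0.35, 2.1e-09). The size in CD103+ DCs depended on 1 library, since the fold of 26.4 became 43.8 without LN CD103+ replicate 1. Nlrp3 was high where the sum of macrophage genes was high within each tissue, except that LP DP DCs had more Nlrp3 and less of the macrophage sum than LP CD11b+ DCs. Lyz1 made up most of that sum in LP CD11b+ DCs (mean 1045 CPM, against 73.4 in LP DP). Adgre1 alone of these genes had a higher mean in LP DP than in LP CD11b+ DCs (196 against 95.4 CPM). The sum of 4 monocyte genes, 1059 to 1321 CPM in LP CD11b+, 835 to 908 in LP DP, 472 to 591 in LN CD11b+ and 310 at most in the other libraries, was higher in the CD11b+ than in the other groups of each tissue and overlapped between LN CD103+ and LN DP DCs, which Nlrp3 separated. The part of macrophage or monocyte RNA in the result was not tested.

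Nlrc4 (chromosome 17, 74425438 to 74459142, minus strand) encodes the partner that NAIP receptors recruit once they have bound bacterial flagellin or secretion system proteins. Its LP levels were 15.8, 13.7 and 19.3 CPM in CD11b+ DCs, 2.33, 2.26 and 2.61 CPM in CD103+ DCs and 12.5, 9.56 and 11.7 CPM in DP DCs. LN levels were 19.1, 11.0 and 13.8 CPM in CD11b+ DCs, 0.539, 0.0843 and 0.351 CPM in CD103+ DCs (13, 2 and 8 reads) and 3.40, 3.42 and 5.04 CPM in DP DCs. CD11b+ DCs of both tissues overlapped and were the upper groups, together with LP DP DCs. Nlrc4 fell in LN in CD103+ DCs (log2 fold change -2.86 ± 0.39, edgeR adjusted p = 6.1e-06) and DP DCs (-1.51 ± 0.31, 0.000489). In CD11b+ DCs the difference was -0.15 ± 0.30 (edgeR adjusted p = 0.730), and its sign changed when LN CD11b+ replicate 2 was left out. Without LN CD103+ replicate 1 the fold in CD103+ DCs was 11.1 in place of 7.28.

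Naip5 (chromosome 13, 100211739 to 100246323, minus strand) encodes a flagellin receptor that acts through NLRC4. It lies among near-identical Naip copies, so reads can be lost or split between them and its level is uncertain. The LP libraries gave 27.0, 17.4 and 30.0 CPM in CD11b+ DCs, 22.7, 15.5 and 17.1 CPM in CD103+ DCs and 25.7, 27.2 and 24.9 CPM in DP DCs, and the LN libraries 16.5, 16.1 and 16.9 CPM, 8.79, 6.16 and 6.36 CPM and 17.8, 19.4 and 17.4 CPM in the same order. Only LN CD103+ DCs stood apart, below every other library. Naip5 fell there against LP CD103+ DCs (log2 fold change -1.37 ± 0.19, edgeR adjusted p = 1.0e-05). The differences in CD11b+ DCs (-0.59 ± 0.19, adjusted p = 0.0199) and DP DCs (-0.51 ± 0.19, 0.0259) missed the threshold of 0.01 in edgeR.

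Aim2 (chromosome 1, 173350879 to 173466040, plus strand) encodes the receptor for cytosolic double-stranded DNA. Aim2 was at 60.4, 49.3 and 59.4 CPM in LP CD11b+ DCs, at 56.2, 50.0 and 55.2 CPM in LP CD103+ DCs and at 91.2, 82.7 and 83.7 CPM in LP DP DCs. Its LN levels were 48.5, 60.7 and 48.2 CPM in CD11b+ DCs, 29.0, 36.1 and 28.3 CPM in CD103+ DCs and 39.7, 37.9 and 33.8 CPM in DP DCs. The spread over the 6 groups was narrow, with LP DP DCs above and LN CD103+ and DP DCs below every other library. Aim2 fell in LN DP DCs (log2 fold change -1.21 ± 0.12, edgeR adjusted p = 1.5e-07). In CD103+ DCs it was lower by less than the required 2-fold (-0.79 ± 0.12, edgeR adjusted p = 1.8e-05), and in CD11b+ DCs the groups overlapped (-0.10 ± 0.12, 0.511).

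Pycard (chromosome 7, 127989708 to 127993867, minus strand) encodes ASC, the adapter that links NLRP3 and AIM2 to caspase-1. In LP it was read at 34.7, 39.8 and 45.4 CPM in CD11b+ DCs, at 13.1, 12.8 and 9.26 CPM in CD103+ DCs and at 18.7, 20.0 and 14.8 CPM in DP DCs. The LN values were 76.6, 52.1 and 68.7 CPM in CD11b+ DCs, 24.8, 24.7 and 25.9 CPM in CD103+ DCs and 35.0, 34.2 and 28.0 CPM in DP DCs. CD11b+ DCs were the highest group of each tissue, and every LN group lay above its LP counterpart. Pycard rose in LN CD103+ DCs (log2 fold change 1.10 ± 0.17, edgeR adjusted p = 2.3e-05), a call that was lost without LP CD103+ replicate 3 (1.86-fold in place of 2.14). It was higher by under 2-fold in CD11b+ DCs (0.72 ± 0.16, edgeR adjusted p = 0.00218) and DP DCs (0.86 ± 0.17, 0.000265). Pycard shares 485 exon bases with the antisense gene Gm45205, which had 12 reads at most in any library.

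Casp1 (chromosome 9, 5298517 to 5307265, plus strand) encodes the inflammasome protease. Its LP levels were 122, 123 and 129 CPM in CD11b+ DCs, 33.1, 30.5 and 23.6 CPM in CD103+ DCs and 158, 172 and 157 CPM in DP DCs. LN levels were 87.5, 84.5 and 89.9 CPM in CD11b+ DCs, 74.0, 76.8 and 86.3 CPM in CD103+ DCs and 113, 125 and 112 CPM in DP DCs. The replicates were close, and the LP CD103+ libraries stood far below all others. Casp1 rose in LN CD103+ DCs (log2 fold change 1.44 ± 0.10, edgeR adjusted p = 2.4e-09), whereas it was lower in the node by under 2-fold in CD11b+ DCs (-0.51 ± 0.10, 0.000576) and in DP DCs (-0.48 ± 0.10, 0.000464). The sum of 8 epithelial genes was likewise highest in LP DP DCs (572 to 822 CPM, against 476 at most elsewhere), mostly through Epcam (mean 452 CPM) and Cdh1 (194). Krt8, Krt18, Krt20, Vil1, Fabp2 and Muc2 instead had higher means in LP CD11b+ than in LP DP DCs (Krt8 33.2 ± 30.5 against 9.52 ± 9.49 CPM). The part of epithelial RNA in the Casp1 level was not tested.

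Casp4 (chromosome 9, 5308828 to 5336783, plus strand) is the next gene on the same strand and encodes the lipopolysaccharide-binding caspase-11. In LP, Casp4 was at 14.6, 14.6 and 13.8 CPM in CD11b+ DCs, at 4.28, 2.71 and 2.24 CPM in CD103+ DCs and at 11.8, 14.1 and 9.96 CPM in DP DCs. In LN it was at 29.2, 33.4 and 24.2 CPM in CD11b+ DCs, at 53.5, 44.8 and 60.1 CPM in CD103+ DCs and at 56.6, 42.7 and 48.6 CPM in DP DCs. All 9 LN libraries were above all 9 LP libraries, and CD103+ DCs went from the lowest group in LP to a level in LN that overlapped the LN DP libraries. Casp4 rose in LN in CD103+ DCs (log2 fold change 4.10 ± 0.22, edgeR adjusted p = 9.0e-11), in DP DCs (2.04 ± 0.20, 1.6e-07) and in CD11b+ DCs (1.01 ± 0.19, 0.000610). The last of these was at the fold limit, 2.01-fold, and was lost with DESeq2 size factors, with the DESeq2 test, with no filter (each 1.99-fold) and without LP CD11b+ replicate 3 (1.97-fold) or LN CD11b+ replicate 2 (1.85-fold). The DC maturation sum and the sum of 8 T cell genes (15.5 to 229 CPM in LP, 372 to 751 CPM in LN) were likewise higher in every LN than in every LP library. The upper T cell sums of LP were those of CD103+ DCs, where Cd8a had a mean of 196 CPM and Cd3e one of 1.06. Group means of Cd3e were 1.06 to 1.42 CPM in LP and 34.2 to 59.7 CPM in LN. The part of the maturation and T cell sums in the Casp4 result was not tested.

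Because these neighbouring caspase genes differed so much in their pattern, the 250 bases upstream of a RefSeq transcript start of each are shown (GRCm38.p6, plus strand, chr9:5298267-5298516 for Casp1 and chr9:5308599-5308848 for Casp4), with matches on either strand to the kappaB motif (GGG, any 5 bases, then CC) in capitals.
Casp1: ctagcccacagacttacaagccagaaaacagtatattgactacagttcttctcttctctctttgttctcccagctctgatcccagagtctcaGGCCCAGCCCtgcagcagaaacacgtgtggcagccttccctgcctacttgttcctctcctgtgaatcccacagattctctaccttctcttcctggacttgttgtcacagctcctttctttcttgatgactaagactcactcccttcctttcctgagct
Casp4: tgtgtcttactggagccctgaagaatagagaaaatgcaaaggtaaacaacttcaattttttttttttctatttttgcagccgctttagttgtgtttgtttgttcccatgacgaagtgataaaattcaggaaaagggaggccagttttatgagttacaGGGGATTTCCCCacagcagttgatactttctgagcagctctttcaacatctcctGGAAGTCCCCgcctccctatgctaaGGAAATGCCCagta
The Casp4 window held 5 matches, 3 of them overlapping, whose first bases lay 93, 92, 91, 39 and 14 bases before the start, and the Casp1 window held 1, at 158 bases. The motif is common, since 45.8% of 32851 RefSeq promoters of this length held at least 1 match. So did 7 of 12 promoters of the genes described here. Among them were those of Naip5 and Nod2 and 1 of Nlrp3, genes that fell in LN CD103+ DCs. Whether the motif had a part in the caspase patterns was not tested. The other motifs searched on both strands, TTCNNNGAA (7.02% of promoters), GAAA with a copy 2 bases after it (2.98%), GAGGAAG (10.6%) and TGANTCA (6.75%), had no match in either window.

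Gsdmd (chromosome 15, 75862327 to 75867408, plus strand) encodes the pore-forming gasdermin D cut by both caspases. Gsdmd was at 160, 138 and 127 CPM in LP CD11b+ DCs, at 91.0, 87.4 and 95.2 CPM in LP CD103+ DCs and at 148, 149 and 119 CPM in LP DP DCs. In the node it was at 176, 220 and 226 CPM in CD11b+ DCs, at 337, 319 and 363 CPM in CD103+ DCs and at 376, 348 and 376 CPM in DP DCs. As for Casp4, every LN library was above every LP library, as were the maturation and T cell sums, whose part in the Gsdmd result was not tested. Gsdmd rose in LN CD103+ DCs (log2 fold change 1.90 ± 0.11, edgeR adjusted p = 2.8e-10) and DP DCs (1.40 ± 0.11, 1.3e-08), and was 1.46-fold higher, under the fold limit, in CD11b+ DCs (0.54 ± 0.11, 0.000847).

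Nod1 (chromosome 6, 54923949 to 54972612, minus strand) encodes the receptor for peptidoglycan fragments that contain diaminopimelic acid. LP levels of Nod1 were 65.1, 56.0 and 72.7 CPM in CD11b+ DCs, 3.64, 5.74 and 3.22 CPM in CD103+ DCs and 65.2, 58.6 and 56.3 CPM in DP DCs. Its LN levels were 134, 94.8 and 129 CPM in CD11b+ DCs, 7.13, 6.16 and 3.94 CPM in CD103+ DCs and 23.9, 18.8 and 25.1 CPM in DP DCs. CD103+ DCs had little Nod1 in either tissue, and in LP the CD11b+ and DP libraries overlapped. The macrophage sum was also lowest in CD103+ DCs of each tissue. Unlike Nod1, it did not overlap between LP CD11b+ (999 to 2199 CPM) and LP DP DCs (280 to 320). The sum of 4 cDC2 genes was 2126 to 3228 CPM in LP CD11b+, 2445 to 2941 in LP DP and 29.1 to 41.6 in LP CD103+ DCs. In the node it was 732 to 1148, 191 to 234 and 42.6 to 50.8 CPM in the same order. The part of either sum in the Nod1 result was not tested. Nod1 fell in LN DP DCs (log2 fold change -1.41 ± 0.21, edgeR adjusted p = 1.8e-05). In CD11b+ DCs it was higher in LN by under 2-fold (0.88 ± 0.20, edgeR adjusted p = 0.00233), and in CD103+ DCs the groups overlapped (0.42 ± 0.23, 0.124).

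Nod2 (chromosome 8, 88647315 to 88688474, plus strand) encodes the muramyl dipeptide receptor. It was read at 9.62, 8.38 and 12.1 CPM in LP CD11b+ DCs, at 4.28, 7.16 and 7.38 CPM in LP CD103+ DCs and at 10.7, 13.1 and 15.9 CPM in LP DP DCs. Its LN values were 5.97, 5.81 and 7.86 CPM in CD11b+ DCs, 1.45, 0.380 and 1.49 CPM in CD103+ DCs and 3.44, 4.71 and 3.80 CPM in DP DCs. Each LN group lay below the LP group of the same label, and CD103+ DCs were the lowest group of each tissue. Nod2 fell in LN CD103+ DCs (log2 fold change -2.50 ± 0.37, edgeR adjusted p = 1.9e-05) and LN DP DCs (-1.73 ± 0.35, 0.000393), and was 1.53-fold lower without passing the test in CD11b+ DCs (-0.62 ± 0.34, 0.165).

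Counted over the 10 genes, a call meaning an edgeR adjusted p under 0.01 and a fold over 2, the tissue comparison in CD11b+ DCs called 2 genes, Casp4 higher and Nlrp3 lower in LN, where 15.2% of all genes tested were called, 10.3% higher and 4.93% lower. In CD103+ DCs 8 of 10 were called, 4 higher (Casp1, Casp4, Pycard, Gsdmd) and 4 lower (Nlrp3, Nlrc4, Naip5, Nod2), beside 35% of all genes, 19.8% called higher and 15.1% lower. In DP DCs 7 of 10 were called, 2 higher (Casp4, Gsdmd) and 5 lower (Nlrp3, Nlrc4, Aim2, Nod1, Nod2), beside 32.1% of all genes, 18.6% called higher and 13.6% lower. The median log2 difference of the 10 genes was -0.13 in CD11b+, -0.18 in CD103+ and -0.86 in DP DCs, and that of all genes 0.03, 0.04 and 0.07. In CD103+ DCs this median joined genes that moved by several log2 units in opposite directions.

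**Figure D2:**
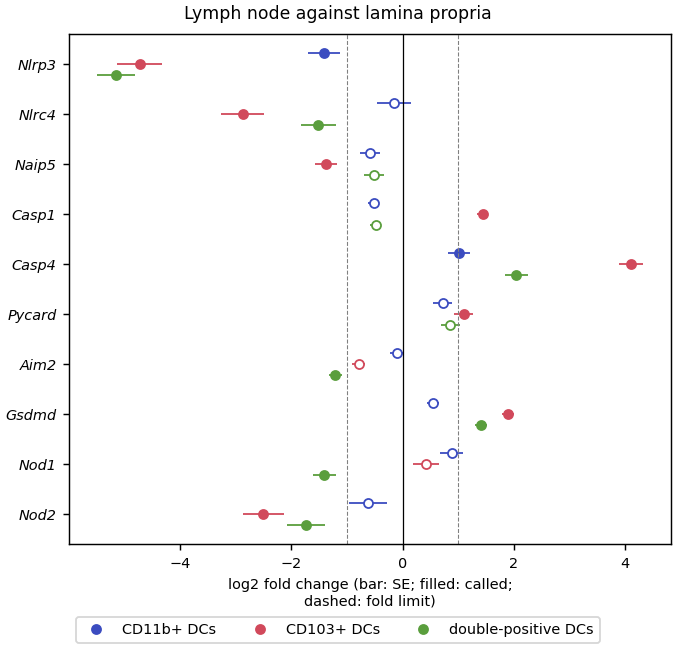
Log2 fold change of LN against LP for each gene in CD11b+ (blue), CD103+ (red) and DP DCs (green), with bars of 1 SE, filled points for calls and dashed lines at the fold limit. Casp4 lay to the right and Nlrp3 to the left in all 3 subsets, and Casp1 was to the right in CD103+ DCs alone.

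Whether the tissue difference itself differed between the subsets was tested in edgeR over all 6 groups, and 7 of 10 genes passed, beside 31.5% of all genes tested. The 3 tissue comparisons share no libraries. Casp1 gave the smallest adjusted p, 1.5e-08, and its change in CD103+ DCs exceeded the change in CD11b+ DCs by 1.95 ± 0.14 on the log2 scale. The tissue rise of Casp4 was greater in CD103+ than in CD11b+ DCs by 3.09 ± 0.28 (edgeR adjusted p = 2.6e-07) and greater in DP than in CD11b+ DCs by 1.03 ± 0.27 (0.00889). For Nlrp3 the change in CD103+ DCs was more negative than in CD11b+ DCs by -3.31 ± 0.51 (edgeR adjusted p = 7.1e-05) and that in DP DCs by -3.73 ± 0.43 (7.9e-06). Nod1 was set apart in DP DCs, whose tissue change differed from that of CD11b+ DCs by -2.29 ± 0.29 (edgeR adjusted p = 1.7e-05) and from that of CD103+ DCs by -1.83 ± 0.31 (0.000394). Pair by pair, 6 of 10 genes differed in tissue change between CD103+ and CD11b+ DCs (18.5% of all genes), 4 between DP and CD11b+ DCs (11.6%) and 3 between DP and CD103+ DCs (8.37%). Naip5 (adjusted p = 0.0242) and Nod2 (0.0153) missed the edgeR threshold in the test over all subsets, and so did Pycard, whose tissue change differed between CD103+ and CD11b+ DCs by 0.38 ± 0.23.

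Within LP, CD103+ DCs had less of 6 of the 10 genes than CD11b+ DCs and more of none, where 15.7% of all genes were called, 5.07% higher and 10.6% lower. Nod1 differed most (log2 fold change -3.91 ± 0.23, edgeR adjusted p = 1.2e-09), followed by Nlrc4 (-2.76 ± 0.32, 3.4e-06), Casp4 (-2.22 ± 0.21, 2.9e-07), Nlrp3 (-2.12 ± 0.30, 2.3e-05), Casp1 (-2.10 ± 0.10, 1.2e-10) and Pycard (-1.77 ± 0.17, 3.1e-07). All 10 differences were negative. Aim2 (-0.07 ± 0.12, edgeR adjusted p = 0.693) and Naip5 (-0.43 ± 0.19, 0.0843) overlapped between these groups. LP DP DCs differed from LP CD11b+ DCs in 1 gene, Pycard, which was lower (-1.16 ± 0.17, edgeR adjusted p = 0.000158), beside 4.81% of all genes, 1.14% called higher and 3.67% lower. Against LP CD103+ DCs, LP DP DCs had more of 5 genes (Nod1, Nlrp3, Casp1, Nlrc4 and Casp4), beside 13.6% of all genes, 8.1% called higher and 5.52% lower. Nod1 was the largest of these (3.81 ± 0.23, edgeR adjusted p = 1.6e-09) and Casp1 had the smallest adjusted p (2.48 ± 0.10, 2.3e-11). Nod2 missed the threshold (1.08 ± 0.34, edgeR adjusted p = 0.0208) and passed it with the replicate number as a block among LP libraries (0.00194), with only the compared libraries fitted (0.00898), without LN CD103+ replicate 2 (0.00235) and with the DESeq2 test (0.00143). These 3 comparisons share groups and are not independent.

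In the node, CD103+ DCs had less of 6 genes than CD11b+ DCs and more of none, where 25.9% of all genes were called, 10.2% higher and 15.6% lower. The largest differences were those of Nlrc4 (log2 fold change -5.47 ± 0.40, edgeR adjusted p = 5.9e-09), Nlrp3 (-5.43 ± 0.41, 9.9e-09) and Nod1 (-4.37 ± 0.24, 2.1e-10). The Nlrc4 and Nlrp3 values, 44.4-fold and 43.2-fold, became 67.5-fold and 71.5-fold without LN CD103+ replicate 1, the library with the most reads of both genes in its group. Nod2 (-2.56 ± 0.37, edgeR adjusted p = 2.1e-05), Pycard (-1.39 ± 0.17, 2.2e-06) and Naip5 (-1.22 ± 0.19, 4.9e-05) were the other genes called. Casp1, which separated the same labels in LP, overlapped between them in LN (-0.14 ± 0.10, edgeR adjusted p = 0.232). Casp4 was turned, 1.83-fold higher in CD103+ than in CD11b+ DCs of the node (0.87 ± 0.19, edgeR adjusted p = 0.00105), though below the fold limit, and Gsdmd was 1.64-fold higher (0.71 ± 0.11, 3.3e-05).

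LN DP DCs had less Nlrp3 (log2 fold change -3.00 ± 0.33, edgeR adjusted p = 1.6e-06), Nod1 (-2.40 ± 0.21, 1.4e-07), Nlrc4 (-1.89 ± 0.31, 0.000113) and Pycard (-1.02 ± 0.16, 8.1e-05) than LN CD11b+ DCs, which is 4 of 10 genes beside 16.7% of all genes, 6.92% called higher and 9.82% lower. The Pycard call, at 2.03-fold, was lost without LN CD11b+ replicate 1 (1.90-fold), without LN DP replicate 3 (1.92-fold) and without both libraries that carried Xist and Ddx3y (1.86-fold). Against LN CD103+ DCs, LN DP DCs had more of 5 genes, beside 6.53% of all genes, 4.69% called higher and 1.84% lower. These were Nlrc4 (3.58 ± 0.39, edgeR adjusted p = 3.9e-06), Nlrp3 (2.43 ± 0.45, 0.000683), Nod1 (1.97 ± 0.22, 6.7e-06), Nod2 (1.85 ± 0.37, 0.00144) and Naip5 (1.36 ± 0.19, 6.8e-05). Here too the folds of Nlrc4 (12.0) and Nlrp3 (5.40) rested partly on LN CD103+ replicate 1, without which they were 18.1 and 8.86. For Nlrp3, Nlrc4 and Nod1, DP DCs thus lay between the other subsets of the node, as they did in the cDC1 and cDC2 sums. Casp1, Naip5 and Gsdmd instead had their highest LN mean in DP DCs. That of Casp1 was 117 CPM, against 87.3 in LN CD11b+ and 79.0 in LN CD103+ DCs. Whether a mixture of cells had a part in the levels of LN DP DCs was not tested.

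**Figure D3:**
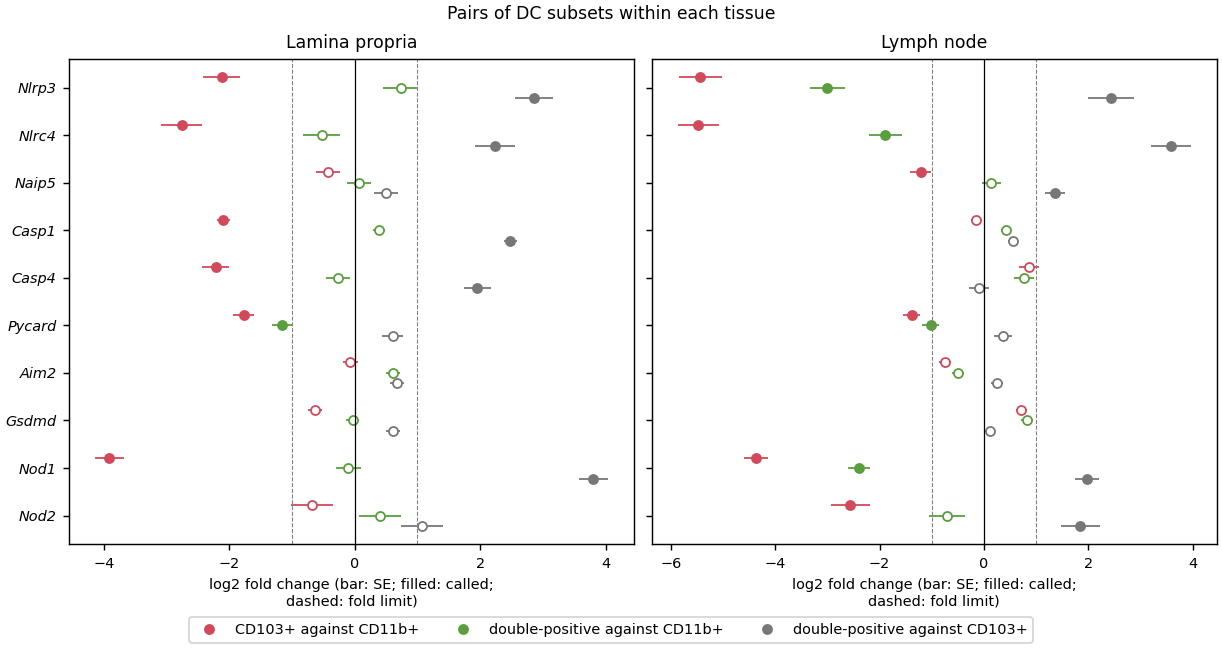
Log2 fold change of each gene between pairs of DC subsets in LP (left) and LN (right), with bars of 1 SE, filled points for calls and dashed lines at the fold limit. CD103+ against CD11b+ DCs (red) gave filled points on the left of zero alone in both tissues, and Casp1 and Casp4 were filled in LP but not in LN.

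When the 6 group means of each gene were put in order, 22 of the 50 pairs of neighbours differed at an edgeR adjusted p under 0.01. Nlrp3 was highest in LP DP and LP CD11b+ DCs, which did not overlap but missed this threshold (edgeR adjusted p = 0.103). LN CD11b+ and LP CD103+ DCs came next, and they also missed it without overlapping (edgeR adjusted p = 0.0482). LN DP and LN CD103+ DCs were last and passed it (edgeR adjusted p = 0.000683). Nod2 had a single step that passed, from LN DP down to LN CD103+ DCs. Its other neighbours missed the threshold, although LP and LN CD11b+ DCs among them did not overlap. Naip5 likewise had 1 step, to LN CD103+ DCs. Gsdmd stepped from the pair of LN DP and LN CD103+ DCs to LN CD11b+ DCs (edgeR adjusted p = 3.3e-05), then to the LP CD11b+ and DP groups (0.000847) and last to LP CD103+ DCs (0.000335).

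Ratios of gene pairs within a library do not depend on how libraries are scaled, but their size depends on the merged exon lengths used. Per exon length, reads of Casp4 were 0.0432 to 0.0483 of those of Casp1 in LP CD11b+ DCs, 0.0359 to 0.0521 in LP CD103+ DCs and 0.0256 to 0.0330 in LP DP DCs, and in LN 0.108 to 0.159, 0.235 to 0.292 and 0.138 to 0.202 in the same order. Every LN library thus had more caspase-11 transcript relative to caspase-1 than any LP library. The ratio of Gsdmd to Casp1 was below 1 in LP CD11b+ (0.623 to 0.824) and LP DP DCs (0.478 to 0.588) and above 1 in every other group, up to 2.61 to 2.87 in LN CD103+ DCs. Nod1 exceeded Nod2 per length in every group but LP CD103+ DCs, where the ratio was 0.431 to 0.840, against 16.1 to 22.1 in LN CD11b+ DCs. Naip5 relative to Nlrc4 was 0.798 to 1.35 in LN CD11b+ DCs and 6.03 to 8.97 in LP CD103+ DCs. In LN CD103+ DCs that ratio spread from 15.1 to 67.4, the highest from a library with 2 Nlrc4 reads.

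**Figure D4:**
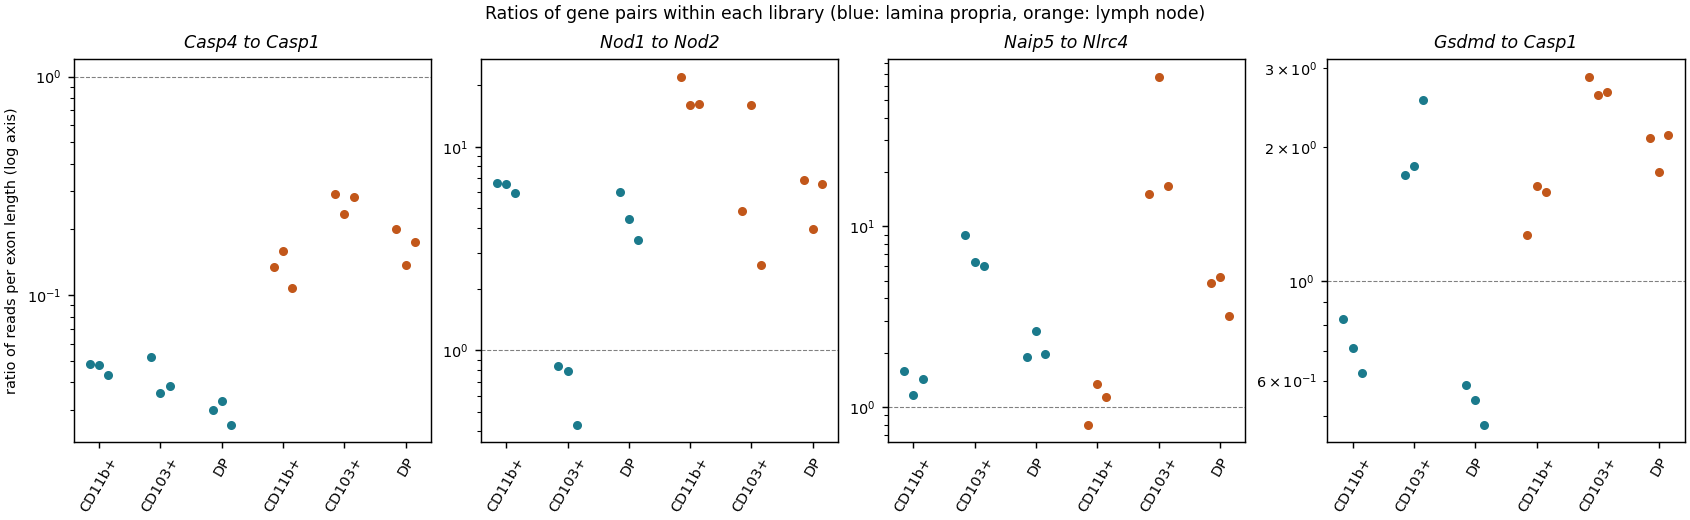
Ratio of reads per exon length of 4 gene pairs in each library (log axis), LP in blue and LN in orange, with a dashed line at a ratio of 1. The ratio of Casp4 to Casp1 was 0.0521 at most in LP and 0.108 at least in LN.

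Over the 18 libraries the levels of some members ran together, as a description of 6 groups that share tissue and subset. Casp4 and Gsdmd had a Pearson r of 0.943 on log2 CPM, Nlrp3 and Nod2 one of 0.919 and Nlrp3 and Aim2 one of 0.902. Among 9915 genes, the pattern most like that of Nlrp3 was that of Cd300c2 (r = 0.988), most like Nlrc4 that of Kcnip3 (0.979) and most like Nod1 those of Sirpb1a and Sirpa (both 0.975), the latter a surface marker of cDC2. Casp1 was closest to Gbp3 (r = 0.976), an interferon-induced GTPase, and to Irf4 (0.968), a transcription factor of cDC2 and of migrating DCs. Casp4 was closest to Adap1 (0.983) and Gsdmd to Samsn1 (0.987). Pycard was nearest to Emp3 (0.970), Nod2 to Cass4 (0.954), Naip5 to Gm49101 (0.951) and Aim2 to Cep95 (0.945).

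Related genes were counted in 5 lists of 75 genes, 69 of them tested, and called in the same way as the 10 genes. Of 12 tested other NLR genes, 2 rose and 3 fell in LN against LP in CD11b+ DCs, 2 rose and 4 fell in CD103+ DCs, and 3 rose and 6 fell in DP DCs (median log2 -0.57, 0.04 and -1.03). Of all genes tested, 15.2%, 35% and 32.1% were called in these comparisons. Ciita, the activator of MHC class II genes, fell in CD103+ DCs from 815 ± 47.6 to 46.3 ± 12.9 CPM (log2 fold change -4.14 ± 0.19, edgeR adjusted p = 1.4e-11). Nlrc5, the activator of MHC class I genes, rose in DP DCs from 16.9 ± 2.06 to 143 ± 31.4 CPM (3.09 ± 0.20, edgeR adjusted p = 1.5e-09). Nlrp1a, from a family of close copies, fell in CD103+ DCs from 21.0 ± 2.07 to 1.52 ± 0.853 CPM (-3.79 ± 0.29, edgeR adjusted p = 6.4e-09). Nlrc3 was at 0.248 CPM at most in LP and at 3.16 to 14.5 CPM in LN, and the sum of 8 T cell genes was 15.5 to 229 CPM in LP and 372 to 751 CPM in LN. Cd3e, part of that sum, had group means of 1.06 to 1.42 CPM in LP and 34.2 to 59.7 CPM in LN. The part of T cell RNA in the Nlrc3 result was not tested.

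Among 17 genes of NOD signalling, 3 rose and 2 fell in CD11b+ DCs, 3 rose and 2 fell in CD103+ DCs, and 3 rose and 3 fell in DP DCs (median log2 0.14, 0.43 and 0.14), beside 15.2%, 35% and 32.1% of all genes. Birc2 and Birc3, ubiquitin ligases that act with RIPK2, rose in CD103+ DCs by 3.60 ± 0.18 (edgeR adjusted p = 2.8e-11) and 2.69 ± 0.10 (1.4e-12) on the log2 scale. Tnfaip3, an inhibitor of NF-κB signalling, rose there too (3.74 ± 0.22, edgeR adjusted p = 3.0e-10). Slc15a3, an endosomal carrier of the NOD2 ligand, fell in DP DCs from 31.9 ± 2.67 to 4.51 ± 1.42 CPM (-2.83 ± 0.37, edgeR adjusted p = 5.5e-06). Of 15 inflammasome regulators, 1 rose and 2 fell in CD11b+ DCs, 7 rose and 3 fell in CD103+ DCs, and 4 rose and 3 fell in DP DCs (median log2 -0.02, 0.07 and -0.38), beside the same shares of all genes. Gbp2 and Gbp5, interferon-induced GTPases of a multigene family that expose bacterial lipopolysaccharide, rose in CD103+ DCs by 4.45 ± 0.18 (edgeR adjusted p = 3.0e-12) and 3.84 ± 0.18 (1.1e-11), and Irf1, which drives them, by 2.80 ± 0.13 (1.2e-11). Serpinb1a, an inhibitor of caspase activation, rose there by 3.89 ± 0.20 (edgeR adjusted p = 4.6e-11).

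Of 14 inflammasome effectors, none rose and 4 fell in CD11b+ DCs, 4 rose and 2 fell in CD103+ DCs, and 3 rose and 5 fell in DP DCs (median log2 -0.58, 0.68 and -0.91), beside 15.2%, 35% and 32.1% of all genes. Il1r2, the decoy receptor for IL-1, fell in DP DCs from 445 ± 82.5 to 5.81 ± 0.0752 CPM (log2 fold change -6.26 ± 0.24, edgeR adjusted p = 2.5e-12), and Il1a fell there by -4.41 ± 0.51 (1.2e-06). Il18bp, which neutralizes IL-18, rose in CD103+ DCs from 1.09 ± 0.396 to 22.4 ± 3.31 CPM (4.34 ± 0.35, edgeR adjusted p = 1.1e-08). Il1b and Il18, which encode the cytokines that caspase-1 matures, were named after their values were seen. Both were lowest in CD103+ DCs of each tissue. Il1b had a mean of 1283 ± 357 CPM in LP CD11b+ and 1455 ± 216 in LP DP DCs, 563 ± 321 in LN CD11b+ and 351 ± 90.9 in LN DP DCs, and 33.0 ± 9.37 and 35.0 ± 4.79 in LP and LN CD103+ DCs. Il18 was at 2.96 ± 0.871 and 4.58 ± 1.42 CPM in LP and LN CD103+ DCs and at means of 14.9 to 30.6 CPM in the other groups. Neutrophils also carry Il1b and Il1r2. The sum of 8 neutrophil genes was 32.0 to 135 CPM in LP CD11b+ and 25.2 to 44.3 in LN CD11b+ DCs. It was 12.5 CPM at most in the other libraries, with Ly6g and Camp at 0 in LP DP DCs. In LP CD11b+ DCs the sum was mostly Csf3r (mean 40.3 CPM) and Retnlg (27.8 ± 39.6). S100a8 and S100a9 instead had higher means in LN CD11b+ (3.03 and 3.30 CPM) than in LP CD11b+ DCs (0.541 and 0.972). The part of neutrophil RNA in the Il1b and Il1r2 levels was not tested.

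Of 11 tested AIM2-like and DNA-sensing genes, 4 rose and none fell in CD11b+ DCs, 3 rose and 2 fell in CD103+ DCs, and 5 rose and 1 fell in DP DCs (median log2 0.82, 0.65 and 0.52), beside 15.2%, 35% and 32.1% of all genes. The Ifi genes among them belong with Aim2 to a family of similar copies, so their counts are uncertain. Ifi208 rose in CD103+ DCs from 0.913 ± 0.331 to 20.9 ± 8.53 CPM (log2 fold change 4.48 ± 0.51, edgeR adjusted p = 9.0e-07), and Ifi205 fell there from 455 ± 12.2 to 55.6 ± 7.43 CPM (-3.03 ± 0.21, 2.5e-09). Ifi213 rose in CD11b+ DCs (2.29 ± 0.19, edgeR adjusted p = 1.3e-07) and Ifi211 in DP DCs (2.24 ± 0.26, 1.4e-06), while Aim2 itself was called in DP DCs, where it fell.

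**Figure D5:**
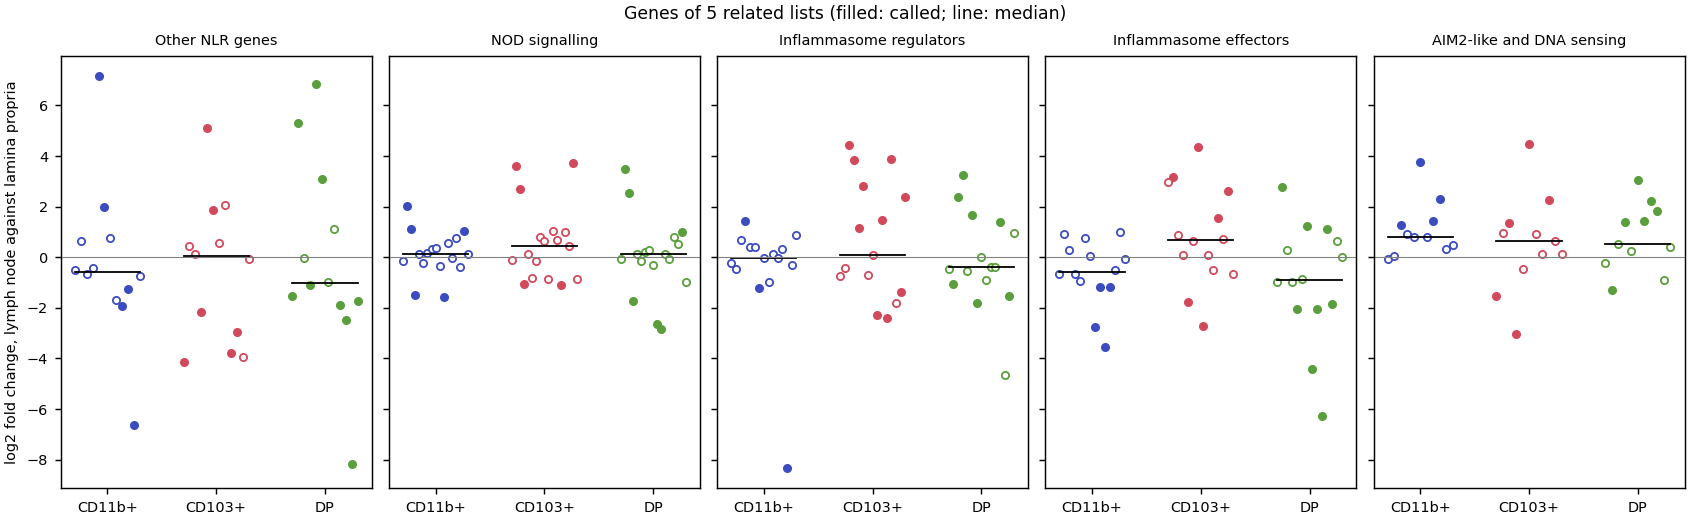
Log2 fold change of LN against LP for the tested genes of 5 related lists in CD11b+, CD103+ and DP DCs, filled where called, with the median as a line. Points lay on both sides of zero in every list, and those of genes with few reads in 1 tissue, such as Nlrc3, depend on the prior count of the fit.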

How the data were processed

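The authors deposited 1 table of raw read counts per Ensembl gene for the 18 libraries. The submitters' processing notes name FastQC 0.11.7 and STAR 2.6, and the study's methods describe GRCm38, unique alignments and unstranded counting for its own DC libraries, whereas the counter used for these libraries was not given in the sources used here. Symbols, positions and exon lengths, with all exons of a gene merged, came from GENCODE annotation of GRCm38, matched by identifier for 54079 of 54232 genes. Groups came from the labels. The deposited counts were tested with edgeR 4.0.16 (R 4.3.3) by quasi-likelihood, after filterByExpr (17074 genes kept) and TMM scaling, in 1 model of 6 group means. P-values were Benjamini-Hochberg adjusted over all genes tested, and a call required an adjusted p under 0.01 and a fold over 2, or the p alone for the test over all subsets and for neighbours. SE is the log2 fold change divided by the square root of F. CPM used TMM-normalized library sizes. Patterns alike were ranked by Pearson r of log2 CPM (prior count 2) among genes with a mean of at least 10 CPM in their highest group. Up to 4 genes per list were named, those with the largest called tissue change at that level. A gene named by this rule is not reported here. The members and lists were chosen with earlier results of these data known. Alternatives were DESeq2 1.42.0 and its size factors, total counts, no filter or at least 100 counts in 3 libraries, only the libraries compared, a replicate block, an adjusted p under 0.05, each library left out, and, added later, an LP-only block and leaving out both LN libraries with Xist and Ddx3y. Same-numbered libraries deviated together, with every correlation of deviations from group means over 0.1, between LP CD103+ and CD11b+ DCs (0.152 to 0.208) and between LP DP and CD103+ DCs (0.125 to 0.189), the numbers being those of the titles. The fit was tested on simulated data. Replicates differed beyond sampling noise (chi-square per gene 16.0 to 71.1, over genes with at least 100 counts in a pair). Genes not tested for low counts were Nlrp2, Nlrp4a, Nlrp4e, Nlrp9b, Nlrp14 and Trex1. The promoter of Gsdmd was not used here.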

Additional observations from a re-analysis of the deposited data

Results flagged for a closer look

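For 7 of the 10 genes the change from LP to LN differed between the DC subsets in the edgeR test over all groups. The adjusted p was 1.5e-08 for Casp1, which rose in CD103+ DCs and was lower by under 2-fold in the other subsets. It was 7.9e-07 for Casp4, higher in LN in all 3 subsets, 5.6e-06 for Nlrp3, lower in all 3, and 8.6e-06 for Gsdmd, with higher values in LN in all 3 (edgeR). The edgeR adjusted p was 1.7e-05 for Nod1, called lower in DP DCs and higher by under 2-fold in CD11b+ DCs, 0.000134 for Aim2, called lower in DP DCs, and 0.000844 for Nlrc4, which fell in CD103+ and DP DCs. Groups of 3 libraries were not tested for single libraries that stand apart.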

How the results depend on the processing

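Of 51 called values of single genes, 47 stayed called under every setting run for them, 28 at most, and none changed sign. Casp4 in CD11b+ DCs lost its call with DESeq2 size factors, with no filter and with the DESeq2 test (each 1.99-fold), so that the tissue comparison of CD11b+ DCs called 1 gene in place of 2 there. Pycard lost its call in the CD103+ tissue comparison with total counts (1.84-fold) and in LN DP against CD11b+ DCs with size factors and DESeq2 (1.99-fold). Nod2 in LN DP against CD103+ DCs lost its call with only the compared libraries fitted (edgeR adjusted p = 0.0161). Nod1 in the CD11b+ tissue comparison gained a call with total counts (2.02-fold) and without LN CD11b+ replicate 2 (2.03-fold). With total counts so did Aim2 in the CD103+ tissue comparison (2.02-fold) and in LN CD103+ against CD11b+ DCs (2.28-fold). Total counts moved the median of all genes by over 0.1 on the log2 scale in the 3 tissue comparisons (from 0.03 to 0.17 in CD11b+ DCs) and between LN CD11b+ DCs and each other LN group, and by less in the other comparisons. In the test over all subsets, Naip5 and Nod2 passed with total counts (edgeR adjusted p = 0.00585 and 0.00366). Nod2 also passed there with no filter (0.00887 in edgeR), with the DESeq2 test (0.000769) and without LP CD103+ replicate 1 (0.00919) or LN CD103+ replicate 2 (0.00748), and Naip5 without LP CD11b+ replicate 2 (0.00888) or 3 (0.00928) or LN CD103+ replicate 1 (0.00773). The causes were not tested.

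Leaving out 1 library in turn gave 1 to 2 calls in the tissue comparison of CD11b+ DCs, 7 to 8 in CD103+ and 7 in DP DCs. Within LP it gave 6, 1 and 5 to 6, within LN 6, 3 to 4 and 5, in the test over all subsets 7 to 8, and 17 to 22 differing neighbours. Without LP CD11b+ replicate 3 the CD11b+ comparison called 1 gene. Signs of uncalled differences turned for Aim2 (0.033) in the CD11b+ tissue comparison and Naip5 (-0.23) in LN DP against CD11b+ DCs with total counts. Leaving out 1 library turned the sign of uncalled differences of Nlrc4 in the CD11b+ tissue comparison (-0.39 to 0.012), Aim2 in LP CD103+ against CD11b+ DCs (-0.13 to 0.0087), Gsdmd (-0.10 to 0.064) and Naip5 (-0.13 to 0.23) in LP DP against CD11b+ DCs, and Casp4 in LN DP against CD103+ DCs (-0.20 to 0.0086).

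Replicate numbers of the titles name no shared animal. Same-numbered libraries deviated together (every correlation over 0.1) only between LP CD103+ and the other LP groups, the lowest being 0.075 between LP DP and CD11b+. A replicate block over all 18 libraries left every count of called genes as it was, with 2, 8 and 7 in the tissue comparisons, and gave 21 differing neighbours in place of 22. With a replicate block in LP only, an alternative added after seeing the data, Nod2 in LP DP against CD103+ DCs was also called (edgeR adjusted p = 0.00194), and no other call changed. Nlrp3 and Nlrc4 in LN CD103+ DCs rested on 2 to 15 reads per library, which limits the precision of their folds.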
